A study of Mus musculus with 6 samples.

Results

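Endothelin signalling and the Hand transcription factors were examined in the H3K4me1 landscape of the mouse whisker pad at embryonic day 12. The 7 genes were Edn1, Edn3, Ednra, Ednrb, Hand1, Hand2 and Mef2c, out of 21755 protein-coding genes. A peak was assigned to a gene when it overlapped the gene body or the 5 kb on either side. Peaks up to 100 kb away were added where the nearest protein-coding start site was that of the gene. By this rule 14 of 16788 peaks in replicate 1, 14 of 12969 in replicate 2 and 16 of 13998 in replicate 3 belonged to the 7 genes.

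Endothelins are small secreted peptides that are cut from longer precursors and bind G protein-coupled receptors. In the pharyngeal arches the ligand endothelin-1, from Edn1, acts on the type A receptor of neural crest cells, from Ednra, and this signal directs crest of the lower jaw through Mef2c, Dlx5, Dlx6 and Hand2. The receptor itself is found widely in facial crest, in the upper and the lower jaw alike, whereas endothelin-3 and the type B receptor, from Edn3 and Ednrb, serve crest that becomes pigment cells and enteric neurons. Whiskers grow from the upper jaw side of the face, so the question asked of these genes was how the lower jaw programme compared with the receptors.

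H3K4me1 is histone H3 with 1 methyl group on lysine 4, a mark found at enhancers and around start sites. CUT&Tag was used to map it, with an antibody that tethers a transposase to the mark and so cuts the DNA beside it. The 3 H3K4me1 samples came from wild-type pads of strain B6/J2, each a whole pad dissociated to single cells, and 3 samples made with IgG carry the same pad numbers. The IgG libraries were not analysed here, which leaves the values without a background of their own. The replicates carry the pad numbers 1, 2 and 3 of their titles, and nothing in the labels says whether the pads came from separate embryos, so the spread between them may be technical. The source name of replicates 2 and 3 gives adult kidney where the title gives whisker pad, and the title was followed. Each pad mixes mesenchyme, epithelium, vessels, nerves and muscle, so fewer cells carrying the mark and less mark per cell cannot be told apart.

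Each peak comes with a total signal, the fragment pileup summed over its bases, and a maximum, the highest pileup within it. Neither is scaled to depth, so a peak was placed by its percentile among the total signals of its own list, where 100 is the strongest. The summed signal within peaks ran from 744342185 to 985881531 between the replicates. The study's methods give 1 nominal sequencing depth for every sample, and the depth reached was not measured here, as the lists hold no read numbers. The lists hold only the strongest 1% of covered blocks, and a gene without a peak may still carry the mark below that limit.

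Tissue markers were counted first, as genes with a peak in the body or its flanks in all 3 replicates. Facial mesenchyme had 9 of 10, led by Alx4, Prrx2 and Twist1, and none of the 10 lacked a peak in every replicate. Surface ectoderm had 4 of 10, led by Grhl3, Grhl2 and Trp63, with no peak at Epcam, Krt14, Cldn4 or Esrp1. Skeletal muscle had 5 of 8, led by Pax7, Myf5 and Myf6, of which the last pair shared their strongest peak, and Msc and Myod1 had none. Endothelium had 3 of 10, led by Erg, Pecam1 and Esam, with no peak at Cdh5, Tek, Tie1, Emcn or Sox17. Sympathetic neurons had 1 of 6, Gata3, with none at Th. Glia and melanoblasts, heart and erythroid cells had 0 of 10, 0 of 6 and 0 of 6. Adult kidney had 2 of 10, Cubn and Slc12a1, and 6 of the 10, among them Umod and Nphs1, had no peak in any replicate, the pair with kidney in the source name included. Markers of facial mesenchyme were thus present in each list. Kidney markers with a peak numbered 4, 4 and 2 of 10 by replicate, where the shares of all protein-coding genes were 24.9%, 22.6% and 19.6%. In all 3 replicates the share of all genes was 15.5%. Most genes of any kind had no peak, and the source name was not tested by these counts.

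Among the 7 genes, 4 had a peak in all 3 replicates, against 15.5% of all protein-coding genes. They were Edn1, Edn3, Ednra and Mef2c. Hand1 had a peak in replicate 2 alone, and Ednrb and Hand2 had none. By replicate, 4, 5 and 4 of the 7 genes carried a peak, where the shares of all genes were 24.9%, 22.6% and 19.6%. A peak in at least 1 replicate was found for 5 of the 7 genes and for 28.8% of all genes. Long genes meet a peak more often. A peak in all 3 replicates was found at 7.1% of genes under 10 kb, 12.2% of those of 10 to 50 kb and 29.5% of those of 50 to 200 kb, and a peak in at least 1 replicate at 18%, 25.5% and 46.2%. With the distant peaks of the whole rule included, 4 of the 7 genes and 18.8% of all genes had a peak in all 3 replicates. Edn1, Hand1 and Hand2 fall in the first class, Edn3 and Ednrb in the next and Ednra and Mef2c in the longest.

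**Figure D1:**
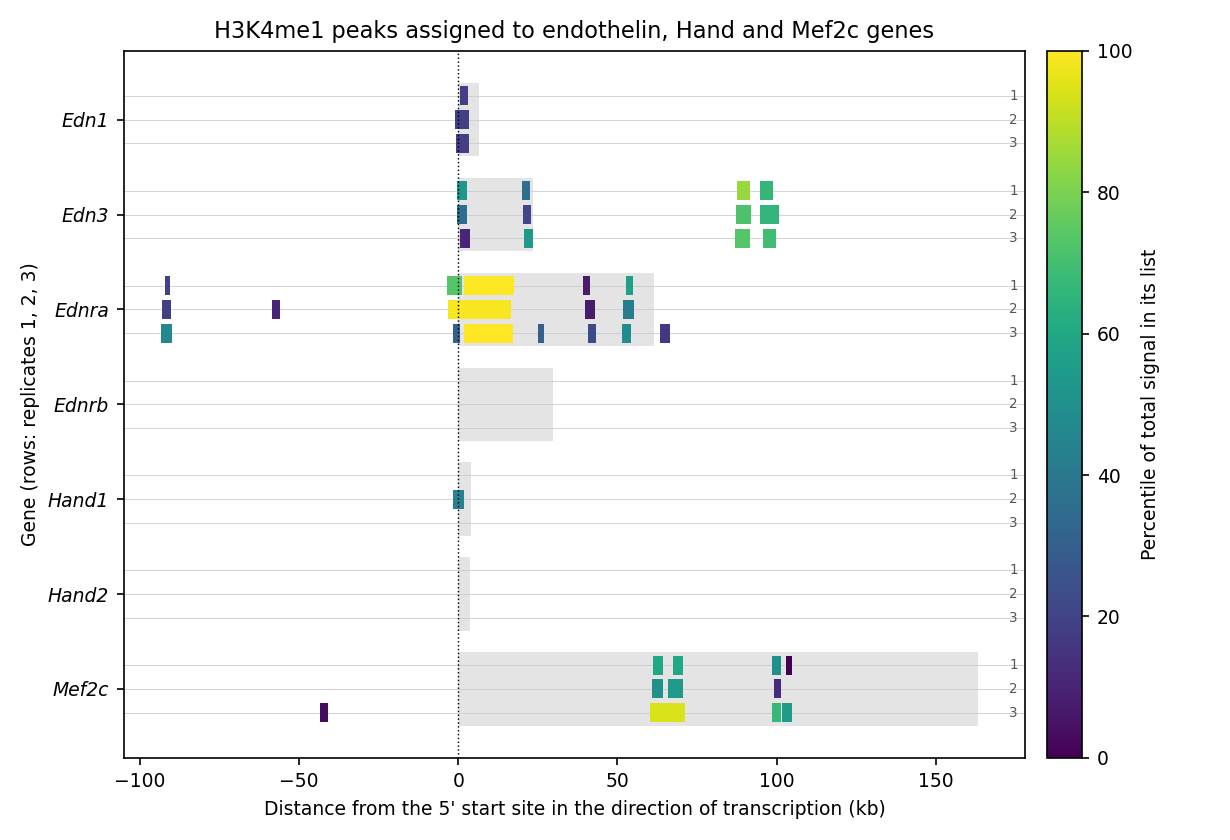
Position of every assigned H3K4me1 peak by distance from the 5′ start site of its gene, in kb along the direction of transcription, with 1 row per replicate. Grey boxes are gene bodies and the colour is the percentile of total signal in the list of that replicate. The block behind the Ednra start is the only one at the top of the scale in every replicate, and the rows of Ednrb and Hand2 are empty.

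Ednra, the endothelin type A receptor, had the strongest peak of the 7 genes. It lies at chr8:77663031-77724464 (mm10, minus strand, 61.4 kb, ENSMUSG00000031616.7), between Tmem184c, 52.3 kb away, and Ttc29, 489 kb away, and within the span of the non-coding gene 4933431K23Rik on the other strand. Peaks covered 35.2%, 37.0% and 38.9% of the gene and its flanks by replicate, with a mean of 37.0% ± 1.82 (SD, n = 3). Only 453 of the 21755 genes had a higher mean, and the genes with a peak in all 3 replicates had a median of 13.2%.

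A single block of 21.03 kb carried most of this signal, from -3.4 kb to 17.6 kb relative to the start site. In replicate 1 its strongest peak was 15.9 kb long with a total signal of 420774 and ranked 87 of 16788. In replicate 2 a peak of 19.8 kb with a total of 490065 ranked 120 of 12969, and in replicate 3 a peak of 15.6 kb with a total of 449989 ranked 32 of 13998. These ranks are percentiles of 99.5, 99.1 and 99.8, a mean of 99.4 ± 0.350 (SD, n = 3), and 63 genes had a higher mean percentile for their strongest peak. The peak held 79.0%, 80.3% and 72.9% of all signal assigned to Ednra and was 15.2, 10.9 and 12.8 times the median peak of its list. Its rank by length was 114, 79 and 89, so the peak was long as well as high. Divided by length, its total stood on average at percentile 96.4, and its maximum pileup of 314, 240 and 238 stood at percentiles 99.6, 99.5 and 99.8.

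The start site of Ednra was marked in every replicate but joined to the block in different ways. In replicate 2 a single peak ran across it, whereas replicate 1 had a separate start peak at percentile 73.1 and replicate 3 a shorter one at percentile 31.2. The block overlaps 420 bp of coding exon, and most of it is intron.

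The highest pileup of the block began at the same base in all 3 replicates, 9.12 kb into the gene. Identical tops were found in 2.97% of 8916 regions with a peak in every replicate, and tops within 150 bp of each other in 27.8%. The pileup there rose far above the rest of the peak, with a maximum of 11.9, 9.71 and 8.24 times the mean pileup, where the median peak had 3.68, 3.61 and 3.46. The 201 bases around this top are shown because they mark the most repeatable point of the strongest peak, in GRCm38.p6 at chr8:77715247-77715447, on the minus strand, 5′ to 3′. Capitals mark E-boxes, the letters CANNTG that basic helix-loop-helix factors such as the Hand and Twist proteins can bind.
Ednra intron top: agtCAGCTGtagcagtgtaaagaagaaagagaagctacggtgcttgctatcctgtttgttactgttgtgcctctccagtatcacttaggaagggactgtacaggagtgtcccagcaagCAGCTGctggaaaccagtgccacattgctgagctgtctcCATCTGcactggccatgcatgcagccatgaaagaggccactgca
The window holds 3 E-boxes. Such letters are common, since 68.8% of the 8916 windows of this size hold at least 1, and they are a description of the sequence rather than of bound sites. None of the letters TAATT, GCCNNNGGC or CTTTGAT, nor a MEF2 motif, was in this window on either strand, where 15.0%, 8.95%, 2.58% and 0.875% of the windows held them. None of these 4 motifs was in the other windows printed for Edn3, Ednra and Mef2c either.

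Ednra had 3 further regions with a peak in every replicate, all of them weaker. A region 51.4 to 55.3 kb into the gene, near its 3′ end and overlapping 153 bp of coding exon, stood at percentiles 56.3, 41.0 and 47.9. Its maximum pileup of 99, 75 and 55 was higher in its list than its total, at percentiles 93.8, 80.1 and 77.7. The top of this region lies in a tandem repeat, which is why its sequence is shown, from GRCm38.p6 at chr8:77670702-77670902 on the minus strand, with an E-box in capitals.
Ednra 3′ region top: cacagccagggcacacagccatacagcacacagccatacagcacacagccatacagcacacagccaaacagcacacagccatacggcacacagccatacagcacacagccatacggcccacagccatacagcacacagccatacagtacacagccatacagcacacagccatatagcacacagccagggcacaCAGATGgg
Here 65.3% of the 12-base words occur more than once within the window, and 1.35% of the 8916 windows have 50% or more such words. Each of 4 stretches of 51 bases tested from this window has 1 exact copy in the genome. The part of the repeat in the pileup was not tested.

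The other regions of Ednra lay in the lower range of the lists. An intronic region 39.1 to 43.2 kb from the start stood at percentiles 7.35, 7.21 and 22.3. An upstream region at -93.3 to -90.0 kb from the start stood at 19.2, 18.7 and 47.3, highest in replicate 3. Another 3 regions had a peak in 1 replicate each, replicate 3 inside the gene and just past its end and replicate 2 at -58.4 to -55.8 kb upstream, at percentiles from 10.05 to 30.4. Of the 17 regions of the 7 genes, 11 had a peak in all 3 replicates, or 64.7%, and 46.3% of 19251 regions of the whole series did.

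Ednrb, the type B receptor, had no peak. It lies at chr14:103814625-103844402 (minus strand, 29.8 kb, ENSMUSG00000022122.15), between Slain1 at 110 kb and Pou4f1 at 617 kb. The nearest peak of any kind stood 854, 853 and 853 kb from its start site in replicates 1, 2 and 3, so the gene sat in a long stretch without peaks in every list. No peak by the whole rule in any replicate was found for 66.6% of protein-coding genes, so the absence at Ednrb is common in itself. The difference in covered share between Ednra and Ednrb was 35.2, 37.0 and 38.9 percentage points, with Ednra higher in 3 of 3 replicates (exact two-sided sign-flip test, p = 0.25, 0.75 after Benjamini-Hochberg adjustment over 3 pairs). With 3 replicates this test cannot fall below 0.25. The glia and melanoblast markers, cells in which Ednrb is known to act, numbered 3, 2 and 1 of 10 with a peak by replicate. All protein-coding genes stood at 24.9%, 22.6% and 19.6%. Sox10 and Erbb3 were marked in replicates 1 and 2, and Foxd3, Dct, Tyr and Pmel in none. The part of these cells in the result was not tested.

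**Figure D2:**
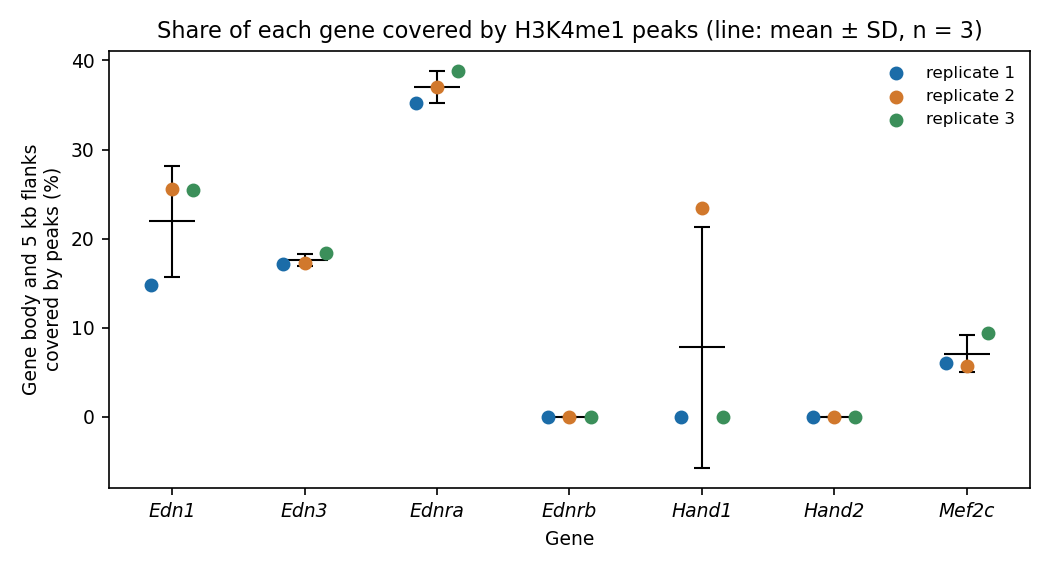
Percent of each gene body with its 5 kb flanks covered by H3K4me1 peaks, with 1 point per replicate and the mean ± SD (n = 3) in black. Ednra is highest at 35.2% to 38.9%, Ednrb and Hand2 are at 0 in all 3 replicates, and the mean of Hand1 comes from replicate 2 alone.

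Edn1, the ligand that sets lower jaw identity, had 1 weak peak over its 5′ part in each replicate. The gene lies at chr13:42301476-42307990 (plus strand, 6.52 kb, ENSMUSG00000021367.8), between Hivep1 at 109 kb and Phactr1 at 373 kb, and the antisense gene Gm47118 overlaps it. Covered shares were 14.8%, 25.6% and 25.5%, a mean of 21.96% ± 6.22 (SD, n = 3). Replicates 2 and 3 were alike and replicate 1 was lower, and its peak began 0.681 kb after the start site while the other peaks began at -0.856 and -0.822 kb. The peak was 2440, 4232 and 4208 bp long, with totals of 17323, 29097 and 23050.

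The total signal of Edn1 was low, at percentiles 18.1, 18.5 and 18.0 (mean 18.2 ± 0.273, SD, n = 3). The median strongest peak of the genes with a peak in all 3 replicates was at percentile 71.9, and 3329 of these 3374 genes had a higher mean than Edn1. The other measures varied more. The maximum stood at percentiles 23.5, 2.71 and 20.996, and the total divided by length at 16.7, 1.71 and 0.307. The tops of the Edn1 peaks were spread over 1501 bp, and no window of its sequence is shown for that reason. Its total signal was 1.21, 1.20 and 1.19 times the lowest total in the list, close to the limit for a peak.

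Edn3, the ligand of the type B receptor, was marked at both ends and in a pair of regions far downstream. It lies at chr2:174760619-174784042 (plus strand, 23.4 kb, ENSMUSG00000027524.9), between Zfp831 at 49.8 kb and Gm14444 at 226 kb. Covered shares were 17.2%, 17.3% and 18.4%, a mean of 17.6% ± 0.680 (SD, n = 3). All 4 of its regions had a peak in every replicate.

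The start region of Edn3 stood at percentiles 53.1, 35.5 and 10.5, and its peak covered the start site in replicates 1 and 2 but began 0.566 kb after it in replicate 3. The region at the 3′ end, 20.1 to 23.5 kb from the start, was ordered otherwise, at 36.4, 21.004 and 54.2. Replicate 3 was thus lowest at one end of the gene and highest at the other, while the covered share hardly moved. The 201 bases at the top of the start region overlap a coding exon and are shown from chr2:174761631-174761831 (GRCm38.p6, plus strand), with 4 E-boxes in capitals.
Edn3 start region top: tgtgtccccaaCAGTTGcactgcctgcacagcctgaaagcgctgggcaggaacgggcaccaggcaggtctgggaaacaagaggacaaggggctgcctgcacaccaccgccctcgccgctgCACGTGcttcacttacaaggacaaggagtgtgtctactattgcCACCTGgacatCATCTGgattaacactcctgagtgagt
The downstream regions were the stronger ones. The first lay 87.0 to 91.8 kb from the start site, across the non-coding gene Gm14618, at percentiles 84.5, 71.5 and 73.1 with maximum pileups of 95, 58 and 51. The next lay 94.7 to 100.8 kb away, across Gm14616, at percentiles 66.4, 65.5 and 69.4. They were assigned to Edn3 by distance, and contact with its promoter was not measured. In the first of them the highest pileup began within 15 bp in the 3 replicates. In replicate 3 the stretch from its first to its last base ran from position 174849444 to 174852131, so that top was not a single point. The window at the first bases is shown from chr2:174849344-174849544 (GRCm38.p6, plus strand), with 2 E-boxes in capitals ahead of a run of alternating bases.
Edn3 downstream top: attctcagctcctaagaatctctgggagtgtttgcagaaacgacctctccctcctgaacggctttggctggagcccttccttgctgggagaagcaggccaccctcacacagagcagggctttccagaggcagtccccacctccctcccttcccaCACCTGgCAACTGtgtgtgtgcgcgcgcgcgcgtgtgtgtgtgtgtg
Each of 4 tested stretches of 51 bases in this window has 1 exact copy in the genome.

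Edn1 and Edn3 did not keep 1 order by covered share with the 5 kb flanks. Edn1 minus Edn3 was -2.42, 8.31 and 7.05 percentage points of covered share (mean 4.32 ± 5.87, SD, n = 3), with Edn1 higher in 2 of 3 replicates (exact two-sided sign-flip test, p = 0.5, adjusted p = 0.75). The mean depended on the window. It was 23.4 ± 7.87 (SD, n = 3) over the bare gene bodies, with Edn1 higher in 3 of 3 replicates (exact two-sided sign-flip test, p = 0.25), -1.50 with flanks of 20 kb and -2.27 over 50 kb on either side of the start site, with Edn1 lower in 3 of 3 replicates in both wider windows (p = 0.25 each, same exact test). By signal the order was the same in each list. Every Edn1 peak was below percentile 19 and the strongest Edn3 peak within the gene or its flanks stood at 53.1, 35.5 and 54.2.

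**Figure D3:**
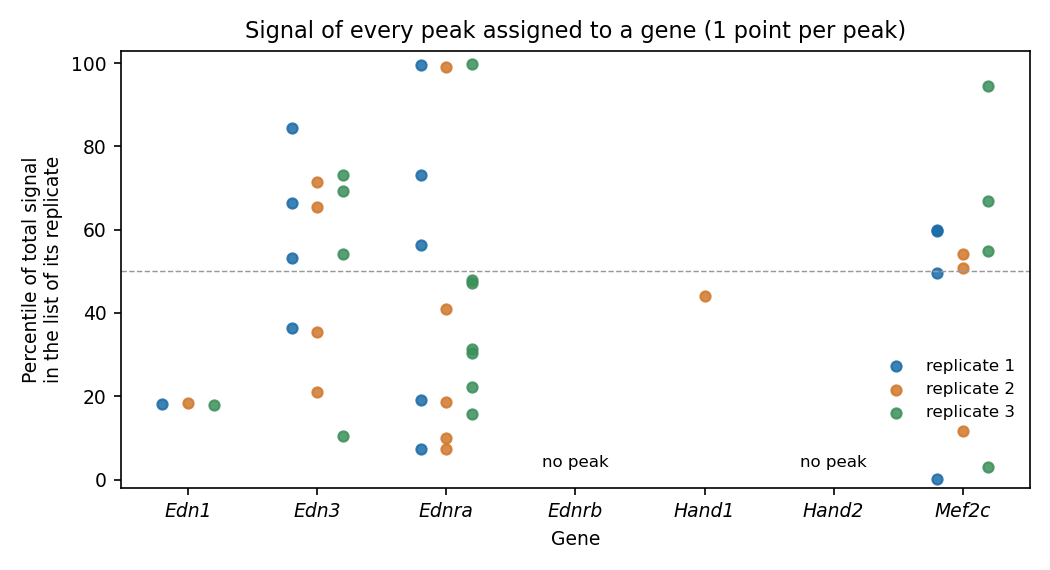
Percentile of total signal of every assigned peak in the list of its replicate, with 1 point per peak, 14, 14 and 16 in replicates 1, 2 and 3. The dashed line is the list median. The strongest Ednra peaks sit at 99.1 to 99.8, the Edn1 peaks at 18.0 to 18.5 and the only Hand1 peak at 44.0.

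Hand1 and Hand2 encode basic helix-loop-helix factors of the heart, limbs and lower jaw. Hand2 lies at chr8:57320983-57324633 (plus strand, 3.65 kb, ENSMUSG00000038193.4), with Scrg1 131 kb and Fbxo8 727 kb away, and had no peak in any replicate. The nearest peak to its start site was 248, 247 and 87.9 kb away, and that of replicate 3, at percentile 16.9, lay nearer to the start of Scrg1. The promoter of Hand2, taken as 1 kb on either side of the start, has 58.4% GC and the highest CpG ratio of the 7 genes, with 0.816 of the CpG pairs that its base composition would give.

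Hand1 lies at chr11:57828705-57832818 (minus strand, 4.11 kb, ENSMUSG00000037335.13), with Sap30l 18.5 kb and Larp1 176 kb away. Its covered share was 0, 23.5% and 0, a mean of 7.82% ± 13.5 (SD, n = 3), so the spread exceeds the mean. The peak in replicate 2 was 3311 bp long, covered the start site and stood at percentile 44.0 by its total of 40617. It was flat, with a maximum pileup of 24 at percentile 3.68, which is 1.96 times its mean pileup. In replicates 1 and 3 the nearest peak was 147 and 156 kb away. Hand2 minus Hand1 was therefore 0, -23.5 and 0 percentage points (exact two-sided sign-flip test, p = 1, adjusted p = 1), and without replicate 2 both genes are at 0. The heart markers, a tissue in which both factors are known to act, numbered 1, 1 and 0 of 6 by replicate. All protein-coding genes stood at 24.9%, 22.6% and 19.6%. Myh6 was marked in replicates 1 and 2, and Nkx2-5, Gata4, Tnnt2, Actc1 and Nppa in none.

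Mef2c, a MADS-box factor downstream of the type A receptor in the lower jaw and also of muscle and endothelium, was marked far inside the gene. It lies at chr13:83504034-83667080 (plus strand, 163 kb, ENSMUSG00000005583.16), with Tmem161b 555 kb and Cetn3 1707 kb away. Covered shares were 6.08%, 5.77% and 9.46%, a mean of 7.10% ± 2.05 (SD, n = 3), below the median of 13.2% for genes with a peak in all 3 replicates. The 5′ start site had no peak in any replicate. Of 23 annotated start sites of Mef2c, each replicate had 5 covered.

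The main Mef2c region lay 60.3 to 71.1 kb from the 5′ start and held the 5 start sites covered in each replicate. This region overlaps 324 bp of untranslated exon. In replicates 1 and 2 it was a pair of peaks with summed totals of 67511 and 93731, and in replicate 3 it was a single peak of 10.7 kb with a total of 137851. Its percentile was 60.01, 54.2 and 94.5 accordingly, a mean of 69.6 ± 21.8 (SD, n = 3), and the value of replicate 3 stands apart. A region at 98.6 to 101.3 kb stood at 49.5, 11.8 and 66.9. A neighbour at 101.7 to 104.7 kb was called in replicates 1 and 3 at 0.235 and 54.9, and a region at -43.5 to -41.0 kb from the start in replicate 3 alone at 2.91. All 4 regions were highest, or found, in replicate 3. The highest pileup of the main region began within 43 bp in the 3 replicates. In replicate 3 the stretch from its first to its last base ran from position 83565846 to 83573578, so that top was not a single point. The window at the first bases is shown from chr13:83565728-83565928 (GRCm38.p6, plus strand), with the E-box in capitals.
Mef2c internal top: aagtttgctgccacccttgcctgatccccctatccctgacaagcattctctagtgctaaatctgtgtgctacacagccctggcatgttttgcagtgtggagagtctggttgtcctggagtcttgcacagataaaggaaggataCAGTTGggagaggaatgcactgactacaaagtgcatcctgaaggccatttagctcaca
Skeletal muscle markers numbered 6, 6 and 5 of 8 by replicate and endothelial markers 5, 3 and 4 of 10. All protein-coding genes stood at 24.9%, 22.6% and 19.6%. The part of muscle and endothelium in the Mef2c peaks was not tested.

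Replicate 3 differed from replicate 2 with base composition over the whole lists. Over the 8916 regions with a peak in all 3 replicates, the 50% with lower GC (median 44.7%) stood a median of 12.9 percentile points higher in replicate 3 than in replicate 2, and the 50% with higher GC (median 50.2%) stood lower, with a median of -8.34 points. The Mef2c regions, at 38.4% and 38.9% GC, were 40.3 and 55.1 points higher in replicate 3, where the first value sets the joined peak of replicate 3 against the stronger of 2 peaks in replicate 2. The Edn3 start region, at 53.1% GC, moved by -25.0 points. Its downstream regions, also above the median GC at 48.9% and 50.6%, moved by 1.59 and 3.90 the other way, and its 3′ end region, at 46.4% GC, by 33.2. The weaker Ednra regions, at 43.1% to 45.2% GC, moved by 6.85 to 28.5. The Ednra block, at 44.6% GC, moved by 0.696 and the Edn1 region, at 47.5% GC, by -0.517. The Hand1 peak, at 55.8% GC, was found in replicate 2 and not in replicate 3. The part of base composition in any single region was not tested.

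**Figure D4:**
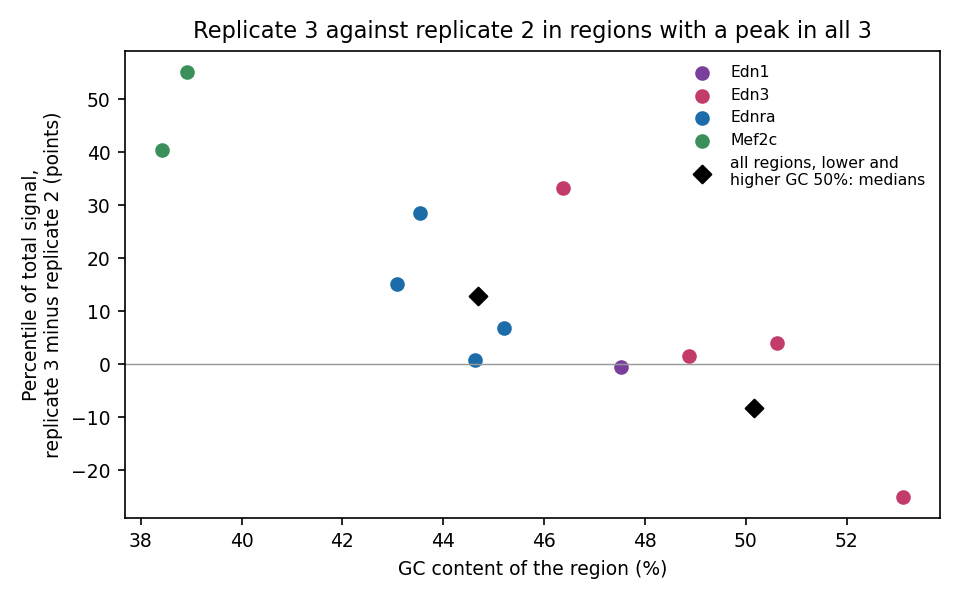
Difference in percentile of total signal between replicates 3 and 2, in points, against the GC content in percent for the 11 regions of Edn1, Edn3, Ednra and Mef2c with a peak in all 3 replicates. Black diamonds are medians of all 8916 regions, split at the median GC. The Mef2c regions lie at the upper left and the Edn3 start region at the lower right.

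The lower jaw genes Edn1, Hand1, Hand2 and Mef2c had a mean covered share of 5.21%, 13.7% and 8.74% in replicates 1, 2 and 3 (mean 9.22% ± 4.27, SD, n = 3). The receptors had 17.6%, 18.5% and 19.4% (mean 18.5% ± 0.908). The receptors were higher by 12.4, 4.79 and 10.7 percentage points, higher in 3 of 3 replicates, with a mean of 9.29 ± 3.99 (SD, n = 3). Without the 5 kb flanks the mean difference was 1.26 ± 6.63 (SD, n = 3), so the spread exceeded the mean. Ednrb, like Hand2, was at 0 in every replicate, so the value of the receptors is that of Ednra alone, averaged over 2 genes.

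The other genes of the lower jaw programme are set beside Hand2, without a peak, and Hand1, with a peak in replicate 2 alone. A peak was found at 7, 8 and 4 of 8 genes by replicate and at 4 in all 3. The shares of all genes were 24.9%, 22.6% and 19.6%, and 15.5% in all 3. Dlx3, Foxf1 and Barx1 had a peak in replicates 1 and 2 only, and Pitx1 in replicate 2 alone. Gsc, a homeobox factor of the lower jaw, had covered shares of 52.3%, 83.1% and 81.9%. Dlx5, an endothelin-dependent homeobox factor, had 51.4%, 72.1% and 35.0%. Its neighbour Dlx6 had 41.3%, 52.4% and 2.44%, and Foxf2, a forkhead factor of facial mesenchyme, had 46.3%, 57.4% and 14.5%. Among 8 upper jaw genes 8, 8 and 6 were marked and 6 in all 3. The Notch ligand Jag1 had 52.7%, 45.9% and 37.9%, and the nuclear receptor gene Nr2f2 had 47.0%, 60.4% and 49.6%. Both lists lost genes in replicate 3, and the difference between the lists was not tested.

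The remaining endothelin pathway was marked at 5, 5 and 2 of 6 genes, with 2 in all 3. All protein-coding genes stood at 24.9%, 22.6% and 19.6% by replicate, and at 15.5% in all 3. Edn2, Gna11 and Plcb3 had a peak in replicates 1 and 2 only. Ece1, the protease that releases mature endothelin, had covered shares of 35.3%, 36.2% and 24.9%. Gnaq, a G protein subunit that couples the type A receptor to phospholipase C, had 6.85%, 6.44% and 10.4%. Ece2, a related protease, had no peak. Of the Mef2 paralogs, Mef2d had 32.2%, 36.5% and 28.8% and Mef2a and Mef2b had no peak in any replicate.

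**Figure D5:**
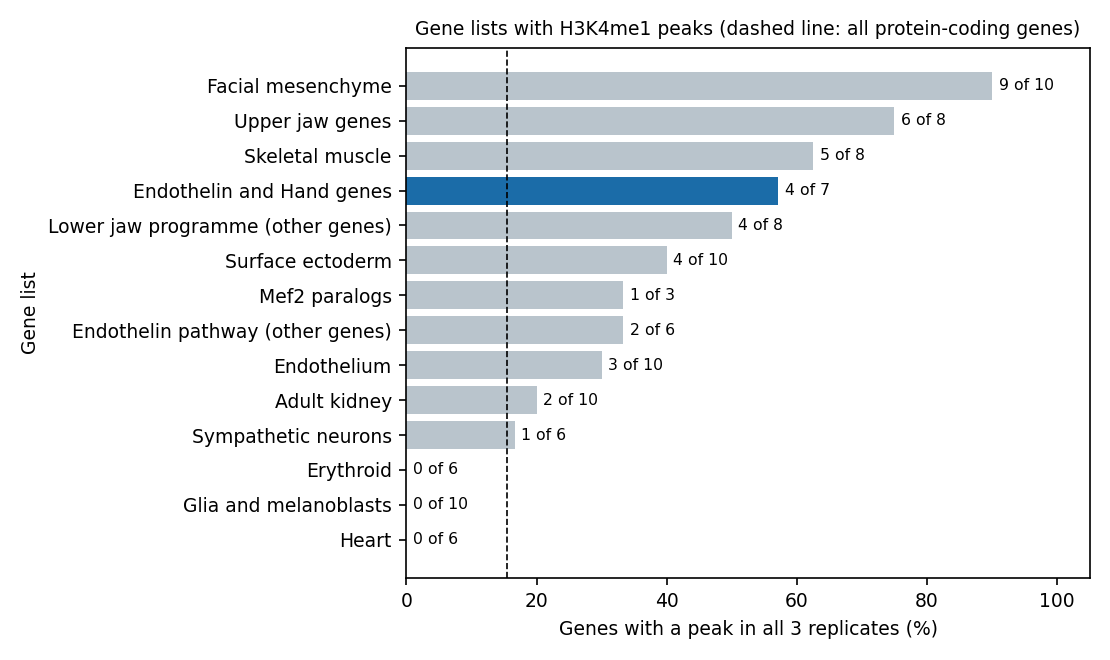
Percent of the genes of each list with a peak over the body or its 5 kb flanks in all 3 replicates, with the counts beside the bars and the share of all protein-coding genes, 15.5%, as the dashed line. Facial mesenchyme is highest at 9 of 10, the endothelin and Hand genes are at 4 of 7, and the heart, glia and erythroid lists are at 0.

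The genes with covered shares most like those of Ednra, Edn3 and Mef2c were sought among 107 genes of the lists, by Euclidean distance over the 3 replicates. Ednra was nearest to Prrx1, a facial mesenchyme gene with 26.1%, 33.3% and 41.0%, at a distance of 10.1 points. Edn3 was nearest to Erg of the endothelium at 3.99 points and Mef2c to Gnaq at 1.38. These distances describe 3 values per gene.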

How the data were processed

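Peak lists of the 3 H3K4me1 CUT&Tag samples were analysed. The IgG samples were not analysed here. The authors called peaks with SEACR 1.3 in stringent mode in each sample without IgG, at the top 1% of blocks. The submitters' processing notes also name mm10, Bowtie2 2.3, SAMtools 0.1.19 and bedtools. The deposited signal columns hold total and maximum pileup as whole numbers with no scaling to depth, so replicates were compared by ranks and percentiles. No peak passed a GRCm38.p6 chromosome end.

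Genes and 54050 protein-coding start sites came from GENCODE M21 (comprehensive set, chromosomes 1 to 19 and X). Covered share is the percent of bases of the body with 5 kb flanks under a peak. Peaks overlapping by at least 1 bp between replicates formed a region, and of 8917 regions in all 3 replicates the 8916 on these chromosomes were used for sequence. Sequence windows of 201 bases centre on the median first base of highest pileup. Windows that overlap an untranslated region, or whose first bases of highest pileup were spread over more than 150 bp, are not printed. Replicates were grouped by title. Pairs of genes were compared within replicates by the exact sign-flip test, with Benjamini-Hochberg adjustment over 3 pairs.

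The named genes were the 7 genes, their neighbours, up to 3 genes per list with a peak in all 3 replicates and the highest mean percentile of the strongest peak, the genes without a peak where a list had 3 or fewer, and the most alike gene of the lists. Other markers are named where defining markers had no peak. Sox10, Erbb3, Myh6, Cubn, Slc12a1, Foxf2, Dlx3, Foxf1, Barx1, Pitx1, Edn2, Gna11 and Plcb3 were named after their values were seen. Some genes named by these rules are not reported here. The genes and lists were chosen with earlier results of these data known. The overlap and coverage code was tested on simulated intervals. Python 3.11.15, numpy 2.4.6, pandas 2.3.3, scipy 1.17.1 and matplotlib 3.10.9 were used. Alternatives changed the share of peaks kept, flanks, windows, reach, annotation, overlap, signal measure and replicates.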

Additional observations from a re-analysis of the deposited data

How the results depend on the processing

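Of 175 alternatives over 23 results, 149 were counted as unchanged, 22 moved the value and 4 reversed its sign. For pairs of genes, unchanged means only that the sign was kept, whatever the size. The unchanged count includes values that stayed at 0, as for Ednrb and Hand2. It also includes the removal of peaks under 1 kb, which altered none of the values it was applied to. With the stronger 50% of each list, 2 genes kept a peak in all 3 replicates, Ednra and Mef2c, in place of 4, and Hand2 minus Hand1 became 0. The number of such genes was 3 with the strongest 10000 peaks, where Edn1 was lost. It was also 3 over 50 kb on either side of the start site, where Mef2c was lost. Both of these changes in number were counted as unchanged. Receptors minus lower jaw genes fell to 1.26 ± 6.63 points (SD, n = 3) with the body without flank. The difference ranged from 7.74 to 11.5 with 1 replicate left out. With 1 replicate left out Hand2 minus Hand1 ranged from -11.7 to 0, the last without replicate 2, and with the body without flank it was -14.0. Edn1 minus Edn3 rose to 23.4 with the body without flank and reversed to -6.16 with the stronger 50% of each list, -9.43 with the strongest 10000 peaks, -1.50 with 20 kb flanks and -2.27 with 50 kb on either side of the start site. Low Edn1 signal drops out of the smaller lists by construction. With the 5 kb flanks, peaks covered 2.44, 4.23 and 4.21 kb at Edn1 and 5.75, 5.79 and 6.16 kb at Edn3 by replicate. The covered share divides these lengths by the window, which is shorter for Edn1 where it follows the gene body. Over 50 kb on either side of the start site both windows have the same length. Among values of single genes, 18 of 125 alternatives moved them and 0 reversed them. The GENCODE basic annotation, chosen after seeing the data, left the assigned peaks and regions of each gene as they were. No paired analysis was possible because a second group of samples was not analysed, and the pairs of genes above were already compared within each replicate.

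The lists hold the top 1% of blocks without IgG subtraction, so weak marks cannot be told apart from none. Read numbers are not among the values in the lists, and the depth reached was not measured here. With 3 replicates no exact test of a pair can fall below 0.25, so the differences rest on their sizes. Outliers were not tested in groups of 3.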
